A study of Mus musculus with 44 samples.

Results

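The 6 genes Ccl1, Ccl3, Ccl4, Ccl5, Xcl1 and Cxcl10 encode chemokines that T cells secrete. They were chosen by name, not by a threshold on their values, but with earlier results of these data known. All 6 were found among the 55416 genes of the count table, and all 6 passed the filter on low counts that left 21873 genes for testing. The study sequenced polyadenylated RNA of CD4 T cells from C57BL/6NTac mice that carried a knock-in (KI), a knockout (KO) or the wild-type (WT) form of the locus of microRNA-150 (miR-150). Sorted naive CD4 T cells of the spleen were kept for 3 days in wells coated with anti-CD3, with soluble anti-CD28 in the medium. In Treg cultures TGF-b1 and anti-IFN-g were added, and in Th1 cultures IL-12 and anti-IL4. Th0 cultures received the activating antibodies alone, so anti-CD3 and anti-CD28 are common to all 9 groups. Each group held 5 libraries, except Th0 KI with 4, for 44 in all. The labels do not give the age or sex of the mice, the construct behind the knock-in or knockout alleles, or whether libraries of a group came from separate animals, so p-values measure the spread between these libraries, which may be technical. A library is given by its culture, genotype and number, as in Treg WT 4, and values are listed by number (1, 3, 4 and 5 in Th0 KI).

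Chemokines are small secreted proteins that direct the migration of leukocytes through G protein-coupled receptors. Ccl3, Ccl4 and Ccl5, also known as MIP-1 alpha, MIP-1 beta and RANTES, attract monocytes and T cells. Activated T cells release Ccl3 and Ccl4 within hours of antigen recognition. Xcl1, or lymphotactin, acts on Xcr1 of cross-presenting dendritic cells. Ccl1 acts on Ccr8, a receptor of Th2 cells and regulatory T cells. Cxcl10 is induced by interferon-gamma in many cell types and attracts cells that carry Cxcr3, among them Th1 cells. Foxp3, the lineage factor of regulatory T cells, and Tbx21, which encodes the Th1 factor T-bet, are used below as readouts of the cultures.

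Of the 6 genes, 4 lie on chromosome 11. In the GENCODE mouse release M21 annotation of GRCm38, Ccl3 (chr11:83647844-83649355, minus strand) and Ccl4 (chr11:83662584-83664683, plus strand) are 13228 bases apart. Ccl5 (chr11:83525778-83530518, minus strand) and Ccl1 (chr11:82176657-82305690, minus strand) lie on the same chromosome. Cxcl10 is at chr5:92346638-92348889 and Xcl1 at chr1:164931644-164935527, both on the minus strand. All 6 are annotated as protein-coding.

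The promoters below are shown because Cxcl10 and Ccl3 were lower in Treg cultures in every genotype and Ccl1 was not. They run 5′ to 3′ from 250 bases before to 50 bases after the start of the gene, from RefSeq on GRCm38.p6, all on the minus strand (the windows are Cxcl10 at chr5:92348840-92349139, Ccl3 at chr11:83649329-83649628 and Ccl1 at chr11:82179763-82180062). The annotations disagree on the start of Ccl1: the RefSeq window lies inside the GENCODE gene, which on the minus strand starts at 82305690. Capitals mark matches, on either strand, to the NF-kappaB letters GGNNTTTCC or GGGNNTTCC and to the interferon-response letters GAAANNGAA.
Cxcl10: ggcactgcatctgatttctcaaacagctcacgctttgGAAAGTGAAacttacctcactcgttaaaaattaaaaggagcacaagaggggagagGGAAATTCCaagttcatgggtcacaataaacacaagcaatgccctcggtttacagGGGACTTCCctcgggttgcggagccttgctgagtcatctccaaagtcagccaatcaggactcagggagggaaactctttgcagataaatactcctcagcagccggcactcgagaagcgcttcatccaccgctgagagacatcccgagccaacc
Ccl3: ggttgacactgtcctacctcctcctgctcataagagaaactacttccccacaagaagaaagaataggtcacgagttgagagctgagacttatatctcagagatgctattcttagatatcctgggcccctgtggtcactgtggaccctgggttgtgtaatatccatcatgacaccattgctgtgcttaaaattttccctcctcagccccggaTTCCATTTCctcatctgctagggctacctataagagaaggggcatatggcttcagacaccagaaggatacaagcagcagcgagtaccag
Ccl1: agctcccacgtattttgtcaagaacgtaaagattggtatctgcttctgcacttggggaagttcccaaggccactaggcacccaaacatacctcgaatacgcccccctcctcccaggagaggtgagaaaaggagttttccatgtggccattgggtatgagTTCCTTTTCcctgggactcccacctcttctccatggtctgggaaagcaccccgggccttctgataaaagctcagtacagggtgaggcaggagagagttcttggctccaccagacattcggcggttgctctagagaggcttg

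The Cxcl10 promoter held a match to each of the 3 patterns, with first bases 213 (GAAANNGAA) and 158 bases (GGNNTTTCC) before the start and the GGGNNTTCC match nearer to it. The promoters of Ccl3 and Ccl1 each held 1 interferon-response match, 39 and 91 bases before the start, and no match to the NF-kappaB patterns searched. Other forms of NF-kappaB site were not searched for, so no promoter is shown to lack one. Of 32851 promoters of the same length, 5.82% held GGNNTTTCC, 5.82% held GGGNNTTCC and 8.56% held GAAANNGAA, and a promoter can hold overlapping matches to the first 2 patterns. The Xcl1 promoter held none of these letters. Such a match describes the sequence, not binding. Promoters were matched for these 4 genes, and those of Ccl4 and Ccl5 were not analysed here.

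Library totals ran from 60815821 to 137415965 counts, and levels are CPM, counts scaled to library size with TMM factors. The targeted gene had too few counts to check the genotype of a library. Mir150, a hairpin precursor, had 0 to 3 counts summed over the libraries of any group. All KO libraries held 0, and so did most WT and KI libraries. All 7 CD4 T cell markers were above the floor of 3 counts in every library, with summed levels of 1613 to 2922 CPM. Foxp3 reached 371.2 ± 249.4 CPM in Treg WT and 1.81 ± 0.865 CPM in Th0 WT cultures. Some libraries stood apart. Cd8a, a CD8 T cell gene, was highest in Treg WT 4 (442.6 CPM), Treg KI 3 (317.6 CPM), Th1 WT 4 (131.5 CPM), Th0 WT 4 (112.7 CPM), Th0 KI 3 (107.5 CPM), Th1 KI 3 (107.4 CPM) and Treg KO 2 (73.1 CPM), so values are also given below with numbers 4 of WT, 2 of KO and 3 of KI left out of every culture. Both CD8 T cell markers together ran from 7.68 to 589.9 CPM in Treg libraries, from 4.68 to 186.5 CPM in Th1 libraries and from 7.05 to 188.03 CPM in Th0 libraries. In the same order, the summed levels of the other lists were 7.45 to 58.5, 1.98 to 24.2 and 1.90 to 13.9 CPM for 9 myeloid and dendritic cell markers, 234.5 to 919.7, 42.5 to 851.3 and 144.9 to 1359 CPM for 5 B cell markers, 4.38 to 28.6, 7.27 to 48.1 and 7.16 to 57.2 CPM for 4 mast cell and basophil markers, and 6.21 to 200.6, 8.31 to 105.5 and 7.37 to 94.9 CPM for 6 NK and innate-like T cell markers. In bulk RNA, fewer cells of a type and less RNA per cell cannot be told apart.

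By group means over all libraries, the 6 genes fell into 2 patterns across cultures. Transcripts of Ccl3, Ccl4, Ccl5 and Cxcl10 were lower in Treg cultures than in Th0 cultures in each genotype, and also lower than in Th1 cultures. Xcl1 and Ccl1 had higher means in Treg cultures. In the main model, which reads no pairs, these differences passed the test only for Ccl1 against Th1 in KO and KI. With same-numbered libraries read as pairs, Xcl1 was also called higher against Th0 in KI and KO, and Ccl1 against Th0 in KI. For Ccl1 in WT the order against Th0 depended on Treg WT 4. Without number 4 of WT the means were 9.68 CPM in Treg and 12.8 CPM in Th0. With edgeR's quasi-likelihood test, and calls at a p under 0.05 after adjustment over all genes (Benjamini-Hochberg), 4 of 6 were lower and 0 higher in Treg against Th0 in each genotype, where 16.9% of all genes were called lower in KI, 15.9% in KO and 15.7% in WT, and 16.7%, 17.1% and 17.4% higher. In Treg against Th1 the same 4 genes were lower in each genotype, where 15.8% of all genes were lower in KI, 15% in KO and 15.2% in WT. The median log2 fold change of the 6 genes in Treg against Th0 was -3.21 in KI, -2.73 in KO and -2.42 in WT, beside medians of -0.01, 0.04 and 0.02 over all genes tested. The comparisons with Th0 and with Th1 share their Treg libraries. Where libraries of 2 groups are said below not to overlap, the same held in the lower direction for 12.1%, 11.2% and 7.89% of all genes in Treg against Th0 in KI, KO and WT, and for 12%, 11% and 5.7% in Treg against Th1.

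**Figure D1:**
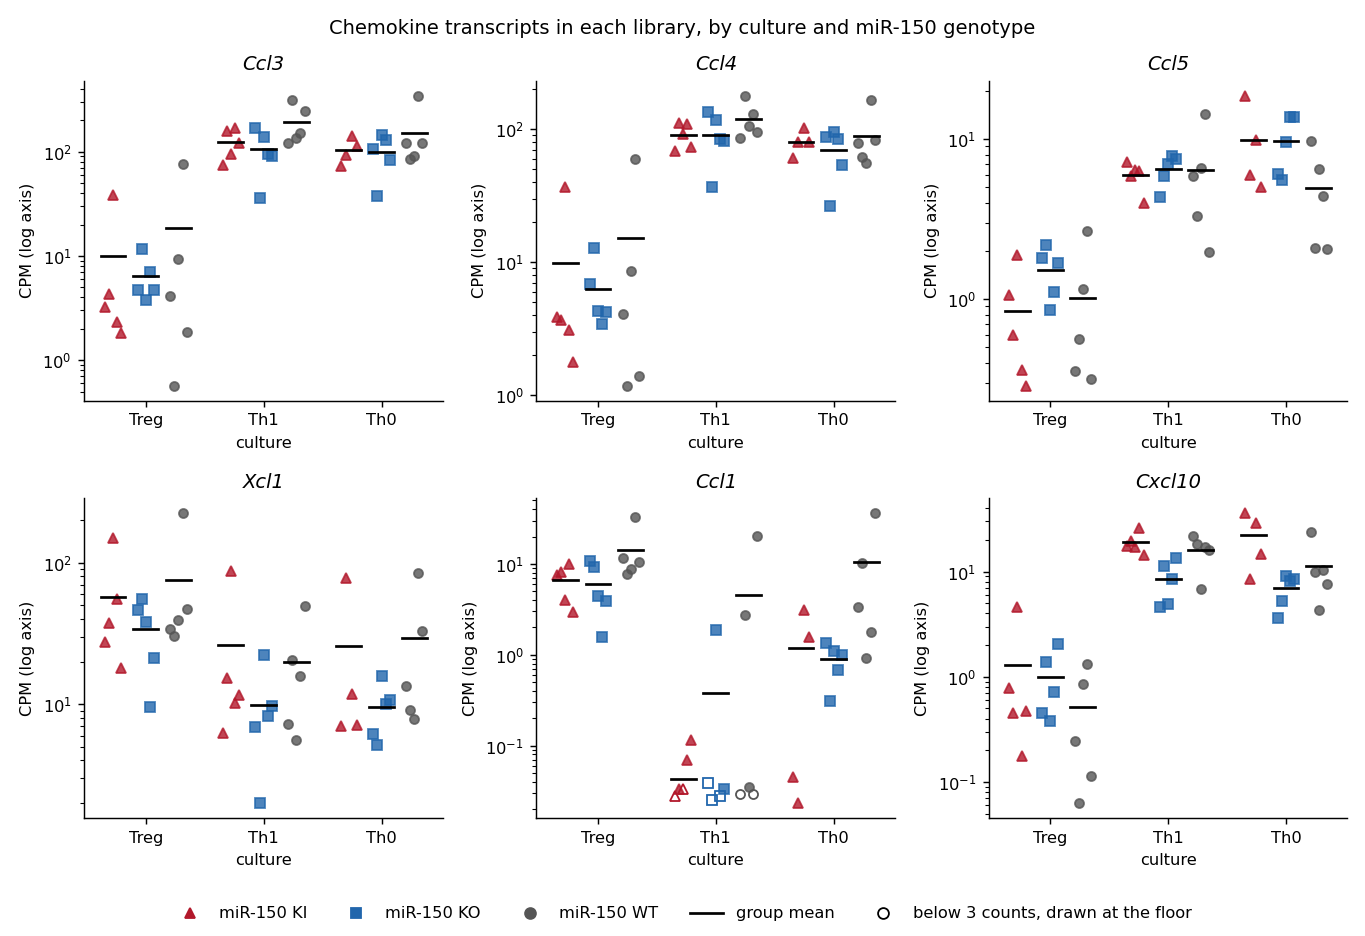
Level of each chemokine transcript in each of the 44 libraries, in CPM on a log axis, by culture (Treg, Th1, Th0) and genotype (KI triangles, KO squares, WT circles); black bars are group means and open symbols are libraries below 3 counts, drawn at the floor. Ccl3, Ccl4, Ccl5 and Cxcl10 sit lower in Treg cultures, Ccl1 is near the floor in most Th1 libraries, and Xcl1 is highest in Treg WT 4 and Treg KI 3.

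Ccl3, a ligand of Ccr1, stood at 3.22, 4.33, 38.3, 2.32 and 1.83 CPM in the Treg KI libraries, 74.99, 156.6, 94.2, 167.1 and 121.6 CPM in the Th1 KI libraries and 73.1, 92.1, 139.9 and 113.2 CPM in the Th0 KI libraries. In KO, Ccl3 stood at 4.76, 11.6, 3.75, 6.996 and 4.69 CPM in the Treg KO libraries, 170.3, 35.8, 139.2, 94.2 and 91.8 CPM in the Th1 KO libraries and 104.9, 37.2, 146.1, 130.6 and 82.7 CPM in the Th0 KO libraries. In WT, Ccl3 stood at 4.10, 0.563, 9.28, 76.1 and 1.84 CPM in the Treg WT libraries, 119.9, 316.4, 135.6, 150.4 and 244.8 CPM in the Th1 WT libraries and 120.8, 85.5, 90.5, 345.2 and 120.2 CPM in the Th0 WT libraries. Every Treg library was below every Th1 and Th0 library of its genotype, and within Treg the libraries KI 3 and WT 4 were the highest of their groups. The means were 10.01 ± 15.9 CPM in Treg KI cultures, 122.9 ± 39.4 CPM in Th1 KI cultures and 104.6 ± 28.7 CPM in Th0 KI cultures (SD, n = 5, 5 and 4). They were 6.37 ± 3.18 CPM in Treg KO cultures, 106.3 ± 51.3 CPM in Th1 KO cultures and 100.3 ± 42.8 CPM in Th0 KO cultures (SD, n = 5 each), and 18.4 ± 32.4 CPM in Treg WT cultures, 193.4 ± 84.2 CPM in Th1 WT cultures and 152.4 ± 109.01 CPM in Th0 WT cultures (SD, n = 5 each). Between Treg and Th0 the log2 fold change of Ccl3 was -3.38 ± 0.84 (SE) in KI, -3.98 ± 0.85 in KO and -3.05 ± 0.81 in WT, with adjusted p of 0.00179, 0.000347 and 0.00337 by edgeR's quasi-likelihood test. Against Th1 it was -3.62 ± 0.83 in KI, -4.06 ± 0.85 in KO and -3.39 ± 0.82 in WT. Without Treg WT 4 the WT value against Th0 was -5.24, and without Treg KI 3 the KI value was -5.18. The same omissions gave -5.60 in WT and -5.43 in KI against Th1. When the WT groups were fitted without the other genotypes, the adjusted p of Ccl3 was 0.0674 against Th0 and 0.0597 against Th1, so both calls were lost.

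Ccl4, encoded next to Ccl3, followed it closely. It stood at 3.92, 3.67, 36.7, 3.09 and 1.79 CPM in the Treg KI libraries, 68.2, 110.9, 92.3, 109.8 and 73.7 CPM in the Th1 KI libraries and 60.7, 79.9, 103.2 and 80.1 CPM in the Th0 KI libraries. In KO, Ccl4 stood at 6.88, 12.8, 4.30, 3.44 and 4.24 CPM in the Treg KO libraries, 135.05, 37.01, 117.1, 84.8 and 81.3 CPM in the Th1 KO libraries and 86.9, 26.4, 96.3, 83.99 and 53.6 CPM in the Th0 KO libraries. In WT it stood at 4.11, 1.17, 8.66, 60.3 and 1.40 CPM in the Treg WT libraries, 86.4, 179.5, 105.6, 130.5 and 94.996 CPM in the Th1 WT libraries and 79.1, 62.3, 55.7, 166.2 and 82.5 CPM in the Th0 WT libraries. The Treg libraries lay below all Th1 and Th0 libraries of their genotype, with 1 exception: Treg WT 4 lay within the range of Th0 WT. For Treg against Th0 the log2 fold change of Ccl4 was -3.04 ± 0.76 (SE) in KI, -3.45 ± 0.76 in KO and -2.56 ± 0.73 in WT, with adjusted p of 0.00194, 0.000497 and 0.00608 by edgeR's quasi-likelihood test. The value against Th1 was -3.21 ± 0.75, -3.84 ± 0.77 and -2.98 ± 0.74 in KI, KO and WT. The WT value against Th0 was -4.51 without Treg WT 4, and the KI value -4.72 without Treg KI 3, and against Th1 they were -4.94 and -4.90. In the fit of the WT groups alone, the adjusted p of Ccl4 was 0.0782 against Th0 and 0.0622 against Th1. The ratio of Ccl3 to Ccl4 in CPM, not divided by gene length, averaged 1.03 ± 0.332 in Treg WT, 1.63 ± 0.575 in Th1 WT and 1.61 ± 0.276 in Th0 WT libraries (SD, n = 5 each), and no test of it was made.

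Ccl5, a ligand of Ccr1 and Ccr3 that effector and memory T cells make late after activation, was a low transcript in these 3-day cultures. It stood at 1.07, 0.594, 1.88, 0.361 and 0.286 CPM in the Treg KI libraries, 7.199, 5.86, 6.45, 6.33 and 3.99 CPM in the Th1 KI libraries and 18.7, 6.003, 9.87 and 4.98 CPM in the Th0 KI libraries. In KO, Ccl5 stood at 1.81, 2.17, 0.850, 1.12 and 1.68 CPM in the Treg KO libraries, 4.33, 5.88, 6.997, 7.87 and 7.50 CPM in the Th1 KO libraries and 6.07, 5.57, 9.54, 13.6 and 13.8 CPM in the Th0 KO libraries. In WT it stood at 0.358, 0.563, 1.16, 2.66 and 0.317 CPM in the Treg WT libraries, 5.90, 3.33, 6.60, 14.2 and 1.97 CPM in the Th1 WT libraries and 9.76, 2.09, 6.46, 4.43 and 2.04 CPM in the Th0 WT libraries. Treg libraries were below all others of their genotype in KI and KO, whereas in WT the library Treg WT 4 overlapped both other cultures. Set against Th0, the Treg log2 fold change of Ccl5 was -3.55 ± 0.59 (SE) in KI, -2.67 ± 0.55 in KO and -2.29 ± 0.55 in WT, with adjusted p of 1.4e-05, 0.000242 and 0.00127 by edgeR's quasi-likelihood test. Relative to Th1 it was -2.83 ± 0.56, -2.09 ± 0.54 and -2.66 ± 0.56 in KI, KO and WT. Leaving out any 1 library kept the call in all 6 comparisons of Ccl5, and the WT value against Th0 was -3.02 and the WT value against Th1 -3.40 without Treg WT 4.

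Cxcl10, the interferon-induced ligand of Cxcr3, had the lowest level per kilobase of the 6 genes in Treg cultures of every genotype. It stood at 0.788, 0.454, 4.58, 0.176 and 0.474 CPM in the Treg KI libraries, 17.4, 19.4, 17.2, 25.997 and 14.4 CPM in the Th1 KI libraries and 36.1, 8.45, 29.1 and 14.7 CPM in the Th0 KI libraries. In KO, Cxcl10 stood at 0.453, 1.38, 0.381, 0.715 and 2.04 CPM in the Treg KO libraries, 4.58, 11.3, 4.97, 8.41 and 13.6 CPM in the Th1 KO libraries and 3.64, 5.28, 9.11, 8.11 and 8.46 CPM in the Th0 KO libraries. In WT it stood at 0.245, 0.0626, 0.860, 1.32 and 0.113 CPM in the Treg WT libraries, 21.6, 18.2, 6.86, 17.2 and 16.1 CPM in the Th1 WT libraries and 23.96, 9.91, 4.28, 10.4 and 7.58 CPM in the Th0 WT libraries. No Treg library reached the lowest Th1 or Th0 library of its genotype. The means in WT were 0.520 ± 0.549 CPM in Treg WT cultures, 15.97 ± 5.49 CPM in Th1 WT cultures and 11.2 ± 7.52 CPM in Th0 WT cultures (SD, n = 5 each). The Treg against Th0 log2 fold change of Cxcl10 was -4.08 ± 0.72 (SE) in KI, -2.79 ± 0.67 in KO and -4.41 ± 0.72 in WT, with adjusted p of 3.02e-05, 0.00124 and 1.32e-05 by edgeR's quasi-likelihood test. Against Th1 it was -3.86 ± 0.70, -3.10 ± 0.68 and -4.92 ± 0.74, with adjusted p of 4.58e-05, 0.000551 and 3.91e-06 by the same test. Without Treg KI 3 the KI values were -5.55 against Th0 and -5.35 against Th1, and without Treg WT 4 the WT values were -5.07 and -5.59. Treg medium held anti-IFN-g and Th0 and Th1 media did not, per the labels' protocols, so TGF-b1 and the antibody cannot be told apart as the part of the Treg condition that a value of Cxcl10 goes with.

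**Figure D2:**
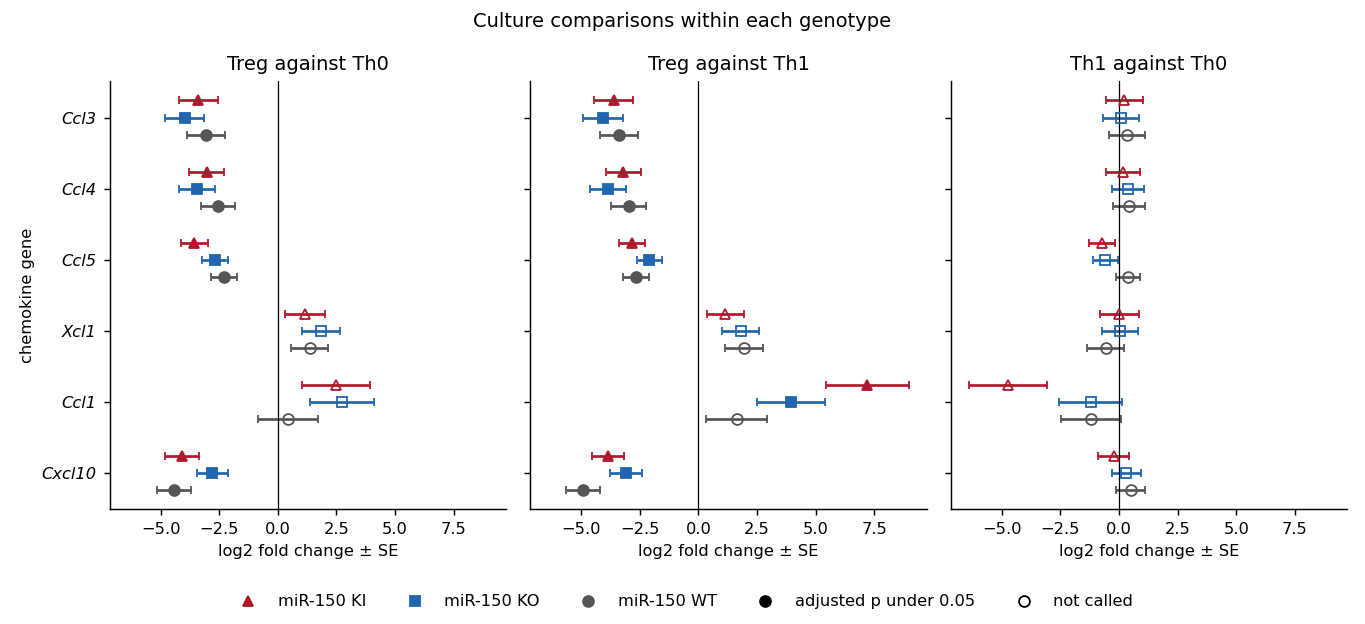
Log2 fold change with its SE for each chemokine gene (rows) in Treg against Th0, Treg against Th1 and Th1 against Th0 cultures, within KI (triangles), KO (squares) and WT (circles); filled symbols have an adjusted p under 0.05 and open symbols do not. Ccl3, Ccl4, Ccl5 and Cxcl10 lie left of 0 in both Treg comparisons, and no symbol is filled in Th1 against Th0.

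Within the Treg cultures, the 3 libraries with the most Cd8a were also those with the most Ccl3 and Ccl4 in their groups and the least Foxp3. Treg WT 4 held 76.1 CPM of Ccl3, 60.3 CPM of Ccl4 and 224.6 CPM of Xcl1, with 442.6 CPM of Cd8a, 47.7 CPM of Foxp3 and 62.7 CPM of Tbx21. Treg KI 3 held 38.3, 36.7 and 148.1 CPM of these 3 chemokines, with 317.6 CPM of Cd8a, 61.97 CPM of Foxp3 and 56.9 CPM of Tbx21. Treg KO 2 held 11.6, 12.8 and 55.6 CPM, with 73.1 CPM of Cd8a, 77.4 CPM of Foxp3 and 47.3 CPM of Tbx21. The next highest Ccl3 and Ccl4 of the Treg WT group were in Treg WT 3, which had 23.9 CPM of Cd8a, 158.7 CPM of Foxp3 and 38.4 CPM of Tbx21. Without the 3 libraries, Ccl3 averaged 2.93 ± 1.10 CPM in Treg KI, 5.05 ± 1.38 CPM in Treg KO and 3.95 ± 3.84 CPM in the Treg WT group (SD, n = 4 each). With numbers 4 of WT, 2 of KO and 3 of KI left out of all cultures, the log2 fold change of Ccl3 in Treg against Th0 was -5.24 in KI, -4.54 in KO and -4.70 in WT, and Ccl3, Ccl4, Ccl5 and Cxcl10 were still called lower in all 6 Treg comparisons. All 24 of these differences were larger without the libraries than with them. Treg WT 4 and Treg KI 3 had the highest Ccl3, Ccl4, Ccl5 and Cxcl10 of their Treg groups, and Treg KO 2 the highest Ccl3, Ccl4 and Ccl5. Leaving out the highest Treg values enlarges such differences by itself, so the larger values are no separate support for them. The same 3 libraries had the highest summed NK and innate-like T cell markers of the Treg cultures. These were 200.6 CPM in Treg WT 4, 109.8 CPM in Treg KI 3 and 136.8 CPM in Treg KO 2, with 68.4 CPM in Treg WT 3 next. Klrk1 alone held 165.6, 89.8 and 87.1 CPM of the 3 sums. Trdc, at 24.5, 16.2 and 39.7 CPM, was above the 26.5 CPM of Treg WT 3 only in Treg KO 2. Ncr1 held at most 0.506 CPM in any Treg library. Among Treg libraries, the B cell sum was highest in Treg KI 3 (919.7 CPM), but not raised in Treg WT 4 (277.1 CPM) or Treg KO 2 (270.7 CPM). Most of it was Ighm, at 240.3 CPM in Treg WT 4 and 218.01 CPM in Treg KO 2. In Th1 and Th0 cultures, numbers 4 of WT, 2 of KO and 3 of KI had the highest B cell sum of each group. It was 970.2 CPM in Th0 WT 4 and 546.9 CPM in Th0 KO 2. What part CD8 T cells, these other cells or a low share of Foxp3-expressing cells have in the levels of the 3 libraries was not tested.

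**Figure D3:**
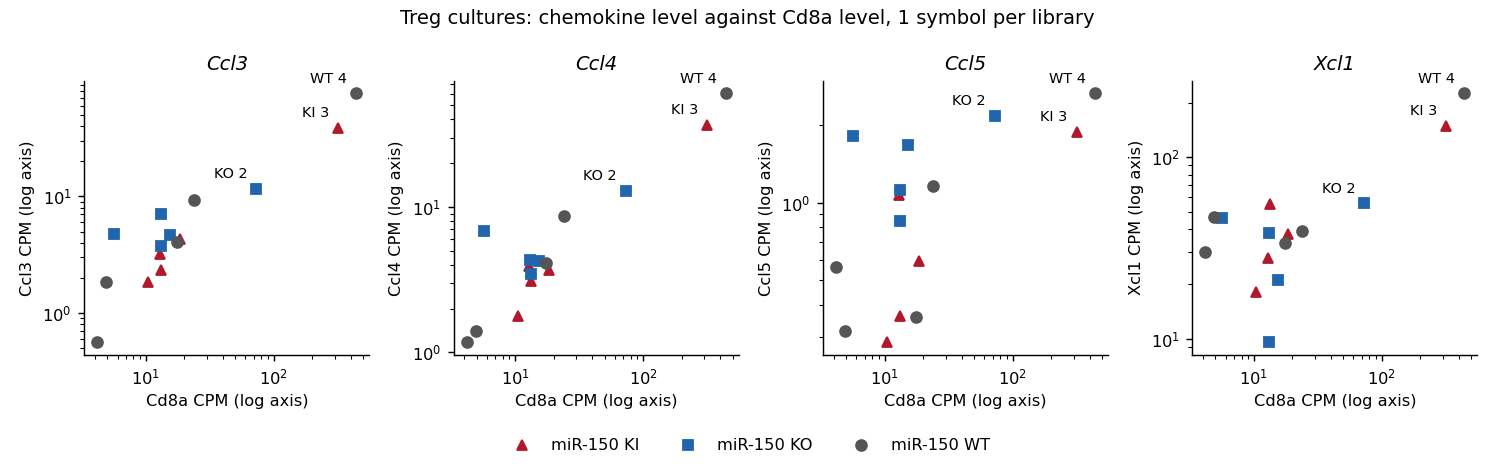
Levels of Ccl3, Ccl4, Ccl5 and Xcl1 (CPM, log axes) against the level of Cd8a in the 15 Treg libraries, by genotype (KI triangles, KO squares, WT circles), with the libraries WT 4, KI 3 and KO 2 named. Treg WT 4 and Treg KI 3 stand at the upper right for Ccl3, Ccl4 and Xcl1.

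Xcl1, which attracts Xcr1-bearing dendritic cells, had higher means in Treg cultures in all 3 genotypes. The differences missed the threshold in the model of 9 group means, which reads no pairs. It stood at 27.7, 37.5, 148.1, 55.3 and 17.99 CPM in the Treg KI libraries, 6.24, 15.4, 86.96, 10.1 and 11.7 CPM in the Th1 KI libraries and 7.05, 77.7, 11.7 and 7.15 CPM in the Th0 KI libraries. In KO, Xcl1 stood at 45.97, 55.6, 38.2, 9.54 and 21.01 CPM in the Treg KO libraries, 6.93, 1.99, 22.1, 8.28 and 9.76 CPM in the Th1 KO libraries and 6.11, 5.12, 15.8, 10.01 and 10.7 CPM in the Th0 KO libraries. In WT it stood at 33.7, 30.2, 39.3, 224.6 and 47.05 CPM in the Treg WT libraries, 7.18, 20.5, 5.60, 15.9 and 49.8 CPM in the Th1 WT libraries and 13.4, 9.16, 7.91, 83.8 and 32.6 CPM in the Th0 WT libraries. The groups overlapped in every genotype, and the highest library of each KI group was number 3. Relative to Th0, the Treg log2 fold change of Xcl1 was 1.14 ± 0.85 (SE) in KI, 1.83 ± 0.81 in KO and 1.35 ± 0.80 in WT, with adjusted p of 0.321, 0.0779 and 0.196 by edgeR's quasi-likelihood test. The value against Th1 was 1.14 ± 0.79, 1.80 ± 0.81 and 1.92 ± 0.81, with adjusted p of 0.292, 0.0903 and 0.067. With same-numbered Treg and Th0 libraries read as pairs, Xcl1 was called higher in KI (1.65, adjusted p = 0.0159) and KO (1.93, adjusted p = 0.00405) by the same edgeR test with the replicate block. The block also called Xcl1 higher in its other Treg comparisons, where the numbers did not meet the rule for pairs. With the same numbers left out, Xcl1 averaged 34.6 ± 15.9 CPM in Treg KI, against 10.9 ± 3.80 CPM in Th1 KI and 8.64 ± 2.67 CPM in Th0 KI (SD, n = 4, 4 and 3). In that fit Xcl1 was called higher in Treg against Th0 in KI (1.99, adjusted p = 0.0125) and KO (1.41, adjusted p = 0.0422) and in Treg against Th1 in KI (1.63, adjusted p = 0.02), and not in the other 3 comparisons. The KO groups fitted alone also called Xcl1 higher, against Th0 (1.81, adjusted p = 0.00781 by edgeR) and against Th1 (1.78, adjusted p = 0.0311), and DESeq2 called it higher against Th1 in WT (1.90, adjusted p = 0.0438).

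Leaving out a single library brought Xcl1 past the threshold in 5 of its 6 Treg comparisons. Without Th0 KI 3 the log2 fold change in Treg against Th0 in KI was 2.71 (adjusted p = 0.0272 by edgeR's quasi-likelihood test), and without Treg KI 3 it was 0.40. Without Th0 WT 4 the WT value against Th0 was 2.23 (adjusted p = 0.0454), and without Treg WT 4 it was 0.37. Against Th1, Xcl1 passed the threshold without Th1 KI 3 in KI (2.37, adjusted p = 0.0256), without Th1 KO 3 in KO (2.34, adjusted p = 0.0466) and without Th1 WT 5 in WT (2.60, adjusted p = 0.0229).

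Ccl1, the ligand of Ccr8, was near the limit of detection in most Th1 libraries and was present in every Treg library. It stood at 7.62, 8.202, 4.05, 10.1 and 2.96 CPM in Treg KI, 10.7, 9.31, 4.48, 1.55 and 3.89 CPM in Treg KO and 11.6, 7.79, 8.81, 32.7 and 10.51 CPM in Treg WT libraries. It stood at 0, 0.0330, 0, 0.0695 and 0.114 CPM in Th1 KI, 0, 0, 1.88, 0 and 0.0329 CPM in Th1 KO and 0, 2.72, 0.0349, 0 and 20.2 CPM in Th1 WT libraries. It stood at 0.0449, 0.0231, 3.08 and 1.58 CPM in Th0 KI, 1.35, 0.307, 1.11, 0.675 and 0.993 CPM in Th0 KO and 3.32, 10.3, 0.922, 1.78 and 36.5 CPM in Th0 WT libraries. Of the Th1 libraries, 2 of 5 in KI, 3 of 5 in KO and 2 of 5 in WT held under 3 counts of Ccl1, and the 5 Th1 KI libraries held 23 counts together, against 3263 counts in the 5 Treg KI libraries. The highest Th1 and Th0 values were both in libraries numbered WT 5. In Treg against Th1 the log2 fold change of Ccl1 was 7.21 ± 1.76 (SE) in KI, 3.96 ± 1.45 in KO and 1.64 ± 1.30 in WT, with adjusted p of 0.00158, 0.0345 and 0.362 by edgeR's quasi-likelihood test. The call in KI and KO compares with 17% of all genes called higher in KI, 15% in KO and 15.6% in WT. At counts this low the fitted value depends on the model, and the mean level was 151.9 times as high in Treg KI as in Th1 KI cultures. Without Th1 KI 5 the fitted KI value was 7.87. In KO the call was lost without any 1 of Th1 KO 1, 2, 4 and 5 and Treg KO 1 and 2 (adjusted p of 0.0503 to 0.0784), and without Th1 KO 3, the highest of that group, the value was 9.16. In WT the value passed the threshold without Th1 WT 5 (4.35, adjusted p = 0.0243).

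Against Th0, Ccl1 did not pass the threshold in any genotype. The log2 fold change in Treg against Th0 was 2.48 ± 1.46 (SE) in KI, 2.75 ± 1.36 in KO and 0.44 ± 1.27 in WT, with adjusted p of 0.199, 0.12 and 0.826 by edgeR's quasi-likelihood test. In KO all 5 Treg libraries were above all 5 Th0 libraries, as for 11.6% of all genes. With same-numbered libraries read as pairs, the KI value was 3.79 with an adjusted p of 0.0447. The KO groups fitted alone gave 2.73 with an adjusted p of 0.00211. In WT the sign turned to -0.12 without Treg WT 4.

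No transcript of the 6 was called different between Th1 and Th0 cultures, the comparison that addresses IL-12 with anti-IL4. In Th1 against Th0, edgeR's quasi-likelihood test called 0 of 6 in KI, KO and WT, where 5.92%, 9.51% and 3.04% of all genes were called in either direction. At an unadjusted p under 0.05 there was 1 gene in KI (Ccl1) and 0 in KO and WT, and DESeq2 called 1 in KI (Ccl1) and 0 in KO and WT. For the 5 genes other than Ccl1, the 15 log2 fold changes ran from -0.73 to 0.51, with SE of 0.52 to 0.83. Ccl1 had a log2 fold change of -4.73 ± 1.68 (SE) in KI, -1.21 ± 1.33 in KO and -1.20 ± 1.28 in WT, with adjusted p of 0.084, 0.642 and 0.73 by edgeR's test. Without Th1 KO 3, which held 1.88 CPM where the other 4 libraries of its group held at most 0.0329 CPM, the KO value was -6.41 (adjusted p = 0.0382).

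The genotype comparisons ask whether the miR-150 locus bears on these transcripts, and none of the 6 was called in any culture. In all 9 genotype comparisons edgeR's quasi-likelihood test called 0 of 6. The share of all genes called in either direction was 0%, 0.169% and 0.0229% in Treg for KI against WT, KO against WT and KI against KO, 0.0274%, 0% and 0% in Th1, and 0.512%, 0% and 0% in Th0. An unadjusted p under 0.05 was reached by 5 of these 54 values, 4 of them of Ccl1, and DESeq2 called 1, Ccl1 for KI against WT in Th1. Apart from Ccl1, the 45 log2 fold changes ran from -1.62 (Xcl1, KO against WT in Th0) to 1.67 (Cxcl10, KI against KO in Th0), with SE of 0.52 to 0.83. A p that misses the threshold does not show that the genotypes are alike.

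Ccl1 came closest to a genotype difference. In Th1 the log2 fold change of Ccl1 was -6.69 ± 1.74 (SE) for KI against WT (adjusted p = 0.114 by edgeR's quasi-likelihood test) and -3.57 ± 1.42 for KO against WT (adjusted p = 0.507). In Th0 it was -3.16 ± 1.51 for KI against WT (adjusted p = 0.289) and -3.57 ± 1.41 for KO against WT (adjusted p = 1). The WT means rested on few libraries: 4.598 ± 8.82 CPM in Th1 WT and 10.6 ± 14.96 CPM in Th0 WT (SD, n = 5 each), with 20.2 CPM in Th1 WT 5 and 36.5 CPM in Th0 WT 5. Without Th1 WT 5 the Th1 values were -3.98 for KI and -0.88 for KO against WT, without Th1 KO 3 the KO value was -8.77, and without Th0 WT 5 the Th0 values were -1.79 and -2.20.

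Cxcl10 had the lowest means in KO cultures of Th1 and Th0. In Th1 it averaged 18.9 ± 4.35 CPM in KI, 8.57 ± 3.92 CPM in KO and 15.97 ± 5.49 CPM in WT cultures (SD, n = 5 each), and every KI library was above every KO library, as for 1.14% of all genes. In Th0 it averaged 22.1 ± 12.7 CPM in KI, 6.92 ± 2.35 CPM in KO and 11.2 ± 7.52 CPM in WT cultures (SD, n = 4, 5 and 5). The log2 fold change of Cxcl10 for KI against KO was 1.14 ± 0.63 (SE) in Th1 and 1.67 ± 0.66 in Th0, with adjusted p of 0.912 and 0.285 by edgeR's quasi-likelihood test. Neither passed the threshold. In Treg cultures its mean was lowest in WT.

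Whether the KO or KI effect differed between cultures was tested directly in 4 comparisons, Treg or Th1 against Th0 for each. By edgeR's quasi-likelihood test 0 of 6 transcripts were called in each, with 0% of all genes called, 0 of the 6 at an unadjusted p under 0.05 and 0 by DESeq2. The 24 differences of log2 fold changes ran from -3.53 to 2.31, and the lowest adjusted p was 0.82.

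**Figure D4:**
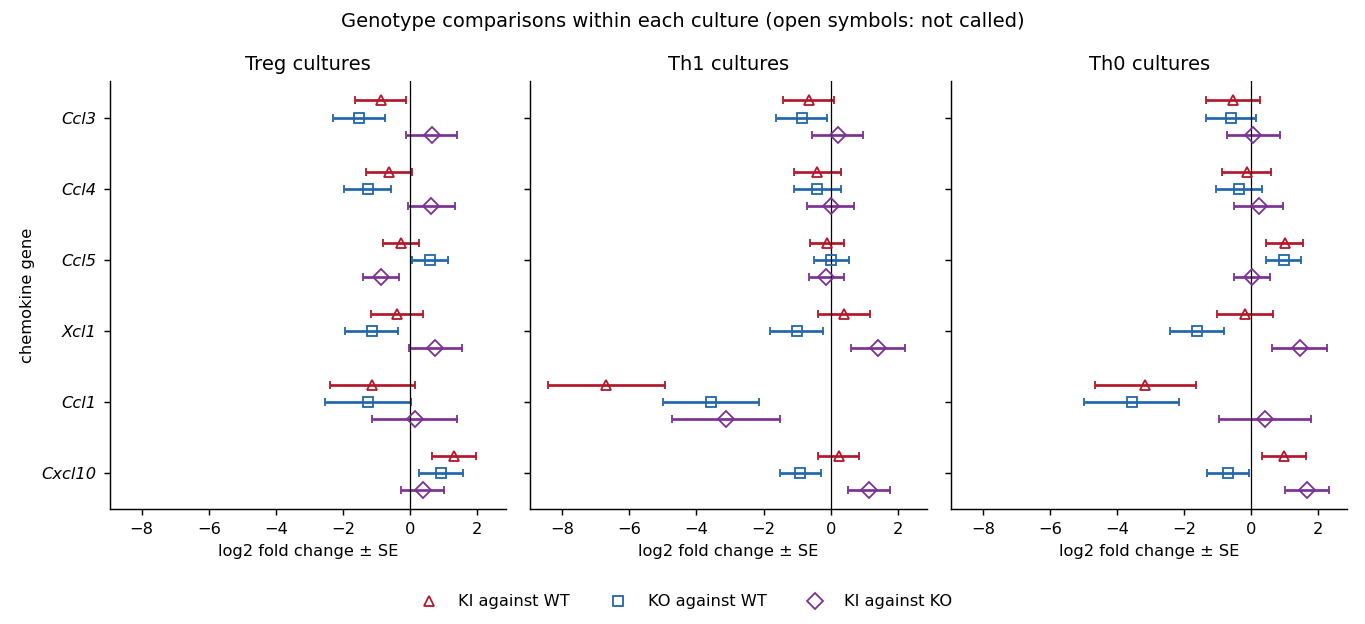
Log2 fold change with its SE for each chemokine gene (rows) in KI against WT (triangles), KO against WT (squares) and KI against KO (diamonds), within Treg, Th1 and Th0 cultures. All symbols are open, as none had an adjusted p under 0.05, and Ccl1 in Th1 and Th0 lies farthest left.

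The make-up of the chemokine RNA is described here without a test. The 6 transcripts summed to 85.9 ± 84.3 CPM in Treg KI, 55.3 ± 27.4 CPM in Treg KO and 124.3 ± 153.2 CPM in Treg WT cultures. The sum was 264.9 ± 62.6, 222.6 ± 89.9 and 359.6 ± 124.8 CPM in Th1 KI, KO and WT, and 244.6 ± 44.8, 196.8 ± 76.9 and 297.7 ± 182.1 CPM in Th0 KI, KO and WT (SD, n = 5 each, 4 in Th0 KI). Xcl1 held 65.6% ± 9.57 of this sum in Treg WT, 5.08% ± 3.79 in Th1 WT and 8.11% ± 4.22 in Th0 WT libraries, while Ccl3 held 8.95% ± 7.41, 52.7% ± 5.26 and 49.9% ± 5.57 (SD, n = 5 each). Per kilobase of merged exon, the level of Xcl1 was the highest of the 6 in Treg cultures of all genotypes, with 143.4 CPM per kb in Treg WT, where Ccl3 had 23.98 and Ccl4 22.9 CPM per kb. Xcl1 was also the highest by the median of the libraries. In Th1 and Th0 cultures of all genotypes the mean levels per kb were highest for Ccl3 and then Ccl4, whose ranges overlapped, with 252.5 and 180.9 CPM per kb in Th1 WT and 198.98 and 135.1 CPM per kb in Th0 WT. In Th1 KO the order of their medians was the reverse. Xcl1 came next in Th1 and Th0, and by mean level per kb Ccl5, Cxcl10 and Ccl1 were below these 3 in every group. The place of Ccl1 in Treg cultures depends on its merged exon length of 2369 bases, from a gene whose annotated start is in dispute. Not divided by length, the median of Ccl1 was above those of Ccl3 and Ccl4 in Treg WT (10.51, 4.10 and 4.11 CPM). It was also above them in Treg KI (7.62, 3.22 and 3.67 CPM) and between them in Treg KO. The mean CPM of Ccl1 was below both in Treg cultures of each genotype. The exons are those of the GENCODE annotation on GRCm38.

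Over the 44 libraries, Ccl3 and Ccl4 varied almost as 1 transcript, with a Pearson r of 0.99 on log2 CPM and 0.96 once group means were taken off. Cxcl10 went with Ccl3 at 0.91 and 0.65, and Ccl5 with Ccl3 at 0.83 and 0.46. Xcl1 had an r of -0.28 with Ccl3 across all libraries and of 0.55 within groups, so the sign turned. Treg WT 4, Treg KI 3 and Th0 WT 4 were the highest of their groups in both genes, and no r was taken without them. Within groups, the r with Cd8a was 0.46 for Ccl3 and 0.54 for Xcl1. These values describe the libraries, which share cultures, mice of 3 genotypes and depth, and carry no test. Of 9892 genes searched, those most like each chemokine were Zeb2 (0.95), Nr4a2 (0.95) and Tigar (0.95) for Ccl3, Zeb2 (0.96), Nr4a2 (0.95) and Crtam (0.94) for Ccl4, Mthfd2 (0.94), Aig1 (0.93) and Cd53 (0.93) for Ccl5, Il15ra (0.92), Map3k8 (0.92) and Nr4a2 (0.91) for Cxcl10, Fcrl1 (0.79), Sorl1 (0.70) and Chst10 (0.69) for Xcl1 and Galm (0.91), Cpd (0.88) and Zdhhc15 (0.87) for Ccl1. Nr4a2, a transcription factor gene induced by T cell receptor signals, stood among the 3 most alike for Ccl3, Ccl4 and Cxcl10. By deviations from group means the lists were mostly different genes: 1 of 3 was kept for Ccl1 (Galm) and Ccl3 (Nr4a2), and 0 of 3 for the other 4 chemokines, where Tbx21 was among the 3 for Ccl4. With Tbx21 the r on log2 CPM and on deviations was 0.94 and 0.87 for Ccl4, 0.93 and 0.82 for Ccl3, 0.88 and 0.70 for Cxcl10, and -0.30 and 0.36 for Xcl1.

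**Figure D5:**
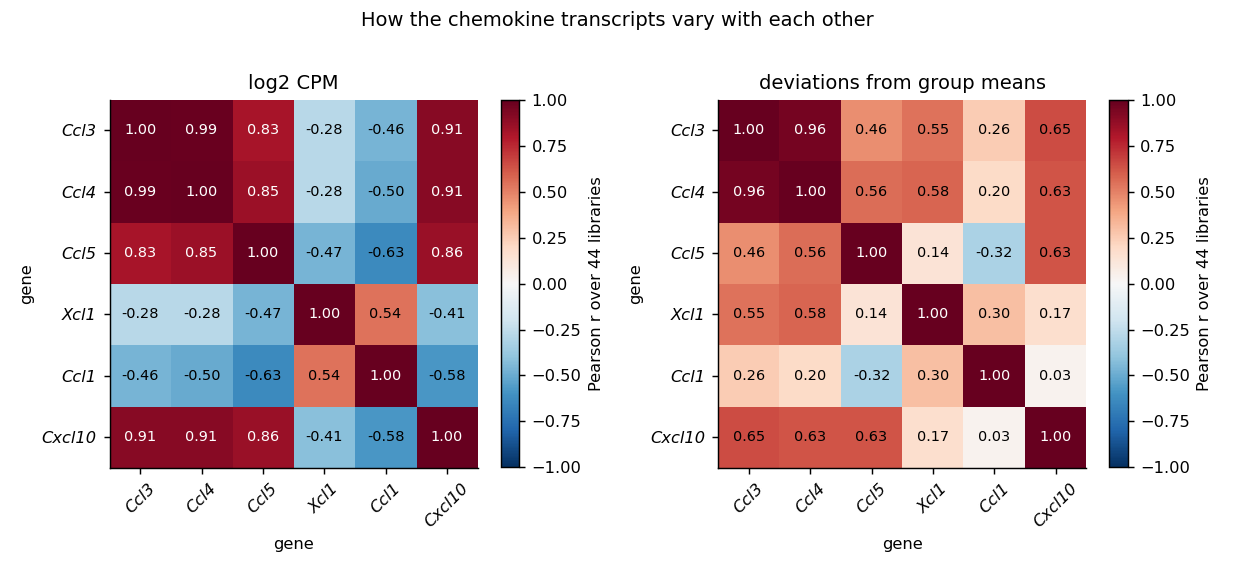
Pearson r between the chemokine transcripts over the 44 libraries, on log2 CPM (left) and on deviations from group means (right). Ccl3 and Ccl4 are at 0.99 and 0.96, and Xcl1 with Ccl3 at -0.28 and 0.55.

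Among other chemokine genes, more were called lower than higher in Treg cultures. Of 32 listed, 20 were tested, and in Treg against Th0 1 was higher and 6 lower in KI, 2 and 6 in KO, and 1 and 7 in WT. In Treg against Th1 2 were higher and 7 lower in KI, 2 and 3 in KO, and 1 and 5 in WT. Over all genes tested, the shares called in Treg against Th0 were 16.7% higher and 16.9% lower in KI, 17.1% and 15.9% in KO, and 17.4% and 15.7% in WT, and in Treg against Th1 17% higher and 15.8% lower in KI, 15% and 15% in KO, and 15.6% and 15.2% in WT. The 3 of 20 lower in Treg against Th1 in KO were thus no larger a share than over all genes. Cxcl13, which attracts B cells through Cxcr5, had 0 counts in the 5 Treg KI libraries, 4 counts in the 5 Treg KO libraries and 0 counts in the 5 Treg WT libraries, against 1.96 ± 2.20, 2.53 ± 1.38 and 3.97 ± 3.08 CPM in Th0 KI, KO and WT (SD, n = 4, 5 and 5). Cxcl9, an interferon-induced ligand of Cxcr3 like Cxcl10, had a log2 fold change of -3.13 ± 0.88 (SE) in Treg against Th0 in KI and -3.01 ± 0.86 in WT, and was called in both, while in KO it was -1.31 ± 0.81 and not called (adjusted p = 0.229 by edgeR's quasi-likelihood test). Pf4, a chemokine of platelets, had values of -4.21, -3.26 and -3.25 in KI, KO and WT in the same comparison, all called. Cxcl11, the other interferon-induced ligand of Cxcr3, was lower in Treg against Th1 with log2 fold changes of -3.50, -4.09 and -4.35 in KI, KO and WT. Ccl9 was called lower in all 6 Treg comparisons, with a log2 fold change of -1.91 in Treg against Th0 in KO. In Th1 against Th0, 1 of the 20 was higher and 1 lower in KO, and none passed in KI or WT. Of all genes, 5.92%, 9.51% and 3.04% were called there in either direction in KI, KO and WT, so the share in KO was near that of all genes.

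Receptors of 3 of the chemokines are given beside their ligands. Ccr8, the receptor of Ccl1, averaged 105.8 ± 33.999 CPM in Treg WT, 6.60 ± 2.52 CPM in Th1 WT and 58.1 ± 57.9 CPM in Th0 WT cultures (SD, n = 5 each). Its log2 fold change in Treg against Th1 was 3.08 ± 0.50 (SE) in KI, 3.11 ± 0.51 in KO and 4.004 ± 0.53 in WT, all called, as Ccl1 was in KI and KO. Xcr1, the receptor of Xcl1, averaged at most 0.551 CPM in any group. Cxcr3, the receptor of Cxcl10, averaged 2.73 to 7.57 CPM and was not called in any culture comparison. Xcr1 and Cxcr3 are named here after their values were seen. None of these 3 receptors was called in the 9 genotype comparisons.

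Of 25 listed regulators of these genes, all tested, in Treg against Th0 8 were higher and 9 lower in KI, 8 and 7 in KO, and 7 and 8 in WT, where the shares over all genes were 16.7% higher and 16.9% lower in KI, 17.1% and 15.9% in KO, and 17.4% and 15.7% in WT. Foxp3 was higher by 8.64, 8.85 and 7.69 on the log2 scale in KI, KO and WT. Stat4, which carries the IL-12 signal, had log2 fold changes of -2.37, -1.85 and -1.92, and Eomes, a T-box factor of cytotoxic cells, -3.12 in KI. Batf, an AP-1 factor of activated T cells, was at -1.84 in WT, and Bhlhe40 at -1.80 in KO, all called. In Treg against Th1 7 were higher and 8 lower in KI, 9 and 8 in KO, and 7 and 7 in WT, with Gata3, the Th2 factor, at 3.27, 3.79 and 3.56 and Prdm1, which encodes Blimp-1, at -3.38, -2.37 and -2.82. The shares over all genes there were 17% higher and 15.8% lower in KI, 15% and 15% in KO, and 15.6% and 15.2% in WT. In Th1 against Th0 1 was higher and 1 lower in KI, 2 and 2 in KO, and 1 and 1 in WT, with Gata3 at -2.68, -4.10 and -4.02, where 5.92%, 9.51% and 3.04% of all genes were called in KI, KO and WT. Between genotypes, Myb, a known target of miR-150, was the regulator called: its log2 fold change in Treg was 1.10 ± 0.24 (SE) for KO against WT and -1.22 ± 0.24 for KI against KO (adjusted p = 0.0286 and 0.0343 by edgeR's quasi-likelihood test), where the 6 chemokines gave no call. 

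Markers of other cells were called between cultures as well. Of 9 myeloid and dendritic cell markers, 4 were higher and 0 lower in Treg against Th0 in each genotype, where 16.7%, 17.1% and 17.4% of all genes were higher in KI, KO and WT. In Treg against Th1 5 were higher and 0 lower in KI, 6 and 1 in KO, and 4 and 1 in WT, where 17%, 15% and 15.6% of all genes were higher. Of 4 mast cell and basophil markers, 1 was lower in KI, 3 in KO and 2 in WT in Treg against Th0, where 16.9%, 15.9% and 15.7% of all genes were lower. In Treg against Th1 0, 1 and 0 were lower, where 15.8%, 15% and 15.2% of all genes were, and none was higher in either comparison. Of 6 NK and innate-like T cell markers, 2 were lower in Treg against Th0 in KI and none was called in the other 5 Treg comparisons. Of 5 B cell markers, 1 was higher in Treg against Th1 in KI and in KO, and none was called in the other 4, and neither CD8 T cell marker was called in any of the 6. Of 7 CD4 T cell markers, 5 were higher in Treg against Th0 in each genotype and 4, 5 and 4 in Treg against Th1 in KI, KO and WT, with none lower. The part of these cells in the chemokine levels was not tested.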

How the data were processed

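Polyadenylated RNA of 44 CD4 T cell libraries was sequenced on 2 lanes each. The authors deposited raw counts per gene and lane, in columns whose names give STAR as the aligner, per the file headers. The counting tool, its annotation and its strand setting are not named in any source used here, so reads of a gene and an antisense partner may not be told apart. The submitters' processing notes name the build GRCh38, whereas the gene identifiers are mouse Ensembl identifiers, so coordinates were taken from GENCODE on GRCm38.

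Counts of the 2 lanes were summed per library. No 2 libraries of a group agreed within sampling noise. Genes passing filterByExpr by group (21873 of 55416) were fitted in 1 model of 9 group means over all 44 libraries with edgeR 4.0.16 (TMM factors, quasi-likelihood test; R 4.3.3, limma 3.58.1). P-values were adjusted over all tested genes by the Benjamini-Hochberg method, and a gene was called at an adjusted p under 0.05. Standard errors are the log2 fold change divided by the square root of the F statistic. Correlations used log2 CPM with a prior count of 2 and genes whose mean log2 CPM was 2 or more. A level under 3 counts was taken as below the floor, which covers counting error only. The steps were tested on simulated data. DESeq2 1.42.0 (Wald test), RLE factors, no filter, only the groups compared, a replicate block, Cd8a as a term, and left-out libraries were tried as alternatives.

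The members and lists were chosen with earlier results of these data known. The genes named are the 6 members, Cd8a, Foxp3, Tbx21 and Mir150 where a result turns on them, up to 3 called genes of each list with the largest change (mean log2 CPM 0 or more), and the 3 genes most like each member by Pearson r. Library numbers come from the labels, which do not say what they mark. Same-numbered libraries were read as pairs where every pair's deviations correlated over 0.1, which held for Th1 and Th0 in each genotype (lowest r of 0.147 in KI, 0.185 in KO and 0.245 in WT) and for Treg and Th0 in KI and KO (lowest r of 0.1 and 0.107). A further gene is not reported here.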

Additional observations from a re-analysis of the deposited data

Results flagged for a closer look

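In 7 of 54 combinations of a chemokine and a group, 1 library stood far from the others on log2 CPM, as judged by its gap to the nearest library divided by the range of the group. Chance gives about 1 in 20. Ccl3 (0.718) and Ccl4 (0.742) were highest in Treg KI 3, and Ccl1 (0.723) and Xcl1 (0.779) were highest in Treg WT 4, the Treg libraries with the most Cd8a. Ccl3 was highest in Th0 WT 4 (0.752), at 345.2 CPM where the other 4 libraries of Th0 WT held 85.5 to 120.8 CPM. Ccl1 was highest in Th1 KO 3 (0.785), at 1.88 CPM. That library also had the most Cd8a (31.7 CPM) and Xcl1 (22.1 CPM) of Th1 KO. Leaving out number 2 of KO, with 21.3 CPM of Cd8a in Th1, thus keeps the Th1 KO library with the most Cd8a. Cxcl10 was lowest in Th1 WT 3 (0.742), at 6.86 CPM where the other 4 libraries of Th1 WT held 16.1 to 21.6 CPM.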

How the results depend on the processing

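Over all alternatives, 2256 of 2444 log2 fold changes of the 6 chemokines kept direction and side of the threshold, 12 lost a call, 24 gained one and 152 changed sign, none of them called. Members called in Treg against Th0 and in Treg against Th1 in WT were 2 each when only the groups compared were fitted, against 4 each in the fit of all libraries. DESeq2 called 1 in Th1 against Th0 in KI and 1 in KI against WT in Th1, where edgeR called 0, and gained Xcl1 in Treg against Th1 in WT (1.90, adjusted p = 0.0438). Leaving out 1 library gave 0 to 1 members called in Th1 against Th0 in KO. The log2 fold change of Ccl1 in Treg against Th0 in WT, 0.44 with all libraries, was -0.40 with numbers 4 of WT, 2 of KO and 3 of KI left out, and ran from -0.12 (without Treg WT 4) to 1.78 (without Th0 WT 5) with 1 library left out. The causes were not tested. Cd8a as a term and RLE factors changed no call. Without the filter, Ccl1 lost its call in Treg against Th1 in KO (adjusted p = 0.0517 by edgeR), as it did without these 3 numbers (3.38, adjusted p = 0.0625). The replicate block moved 8 values past the threshold. Of these, 3 are given above for Treg against Th0 in KI and KO. The other 5 are in comparisons whose numbers did not meet the rule for pairs: Xcl1 in Treg against Th0 in WT (1.52) and in Treg against Th1 in KI (1.46), KO (2.01) and WT (1.73), and Ccl1 in Treg against Th1 in WT (5.07). The lowest r in these comparisons was 0.0816, and in Treg against Th0 in WT 4 of 5 libraries had their highest correlation with their own number. In Treg against Th1 all 5 libraries did so in each genotype. The mean r of same numbers there was 0.186, 0.159 and 0.172 in KI, KO and WT, against -0.044, -0.0384 and -0.0431 for other numbers. In KI and KO, both Treg and Th1 numbers were read as pairs with Th0. The lowest r alone thus kept these comparisons out of the rule. The block changed no other call. With 5 or fewer libraries a group and SE of 0.52 to 0.83 outside Ccl1, small differences were not detectable, and Ccl1 in Th1 rests on few counts.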
